A study of Mus musculus with 12 samples.

Results

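Combined blockade of PD-L1 and Lag3 was compared with isotype antibody in responding CD4+ T cells of the mouse spleen, across every mouse gene with 30 or more reads summed over the 12 libraries of the series. The members of this comparison are the 3 libraries of the combination group, called CB, and the 3 of the isotype group, 6 of 12 libraries in all, and 15138 of the 56691 mouse genes in the count table passed the read minimum. All mice were Tg4 Nr4a3-Tocky Il10-GFP animals. Tg4 is a transgenic T cell receptor (TCR) for a peptide of myelin basic protein, Tocky is a Timer protein made when Nr4a3 is transcribed, whose blue form matures to a red form, and the GFP reports Il10. Mice of both sexes, mostly 6 to 8 weeks old, received 4 mg/kg of the [4Y]-MBP peptide under the skin. After 24 h the CB group received anti-PD-L1 (clone MIH5) with anti-Lag3 (clone C9B7W) in equal parts, and the isotype group a pool of rat IgG1 and rat IgG2a. Peptide was given again 30 min later, at 0.4 mg/kg, and after 12 h CD4+ cells positive for both Timer forms were sorted, 1 library from each mouse. The receptor is a fixed transgene and its peptide was the stimulus given, so the data describe re-stimulated T cells of mice with this receptor. The sort did not select on the receptor, so cells of other specificities were not excluded. The question the comparison answers is which transcripts differ between the sorted responders of the CB and isotype groups. In its flow cytometry, the paper reports a larger share of CD4+ cells positive for both Timer forms with CB than with isotype. Whether the sorted cells differ because other cells entered the gate was not tested.

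A T cell that is triggered through its receptor leaves a quiescent state, in which factors such as FOXO1 hold trafficking and survival genes on, and starts to grow. Growth needs new ribosomes, which are built in the nucleolus from ribosomal RNA with the help of assembly factors and small nucleolar RNAs (snoRNAs), and it needs the chaperones and synthetases that serve translation. PD-1 and Lag3 are inhibitory receptors that damp TCR signals in cells that have met antigen, PD-L1 is a ligand of PD-1, and T cells also change their response to interferons, their adhesion and their cytoskeleton as they become activated.

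In the CB group many genes of ribosome assembly, of snoRNA-protein particles and of heat shock chaperones, and several interferon-inducible GTPases, were called higher than in the isotype group, while many genes of actin dynamics and several of mitosis, integrins and quiescence were called lower. Of the 15138 genes tested, 353 were called higher in CB, which is 2.33%, and 296 were called lower, which is 1.96%. Together 649 genes were called, or 4.29% of those tested. A gene is called where edgeR's quasi-likelihood test gave an adjusted p under 0.05, and all fold changes are log2(CB over isotype). The median log2 fold change was 0.69 over the genes called higher, -0.73 over those called lower and 0 over all genes tested. The change exceeded 1 on the log2 scale for 67 genes called higher and 64 called lower, and it was under 0.5 in size for 137 called genes. The 3 CB libraries did not overlap the 3 isotype libraries for 3032 genes, or 20.0% of all genes tested, with 1575 above and 1457 below, and 645 of the 649 called genes were among them. No called gene changed sign in any of the alternative fits, but the number called depended on single libraries. It was 214 higher and 191 lower without isotype replicate 1, 254 and 195 without isotype replicate 2, 237 and 184 without CB replicate 1, and 224 and 170 without CB replicate 3.

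**Figure D1:**
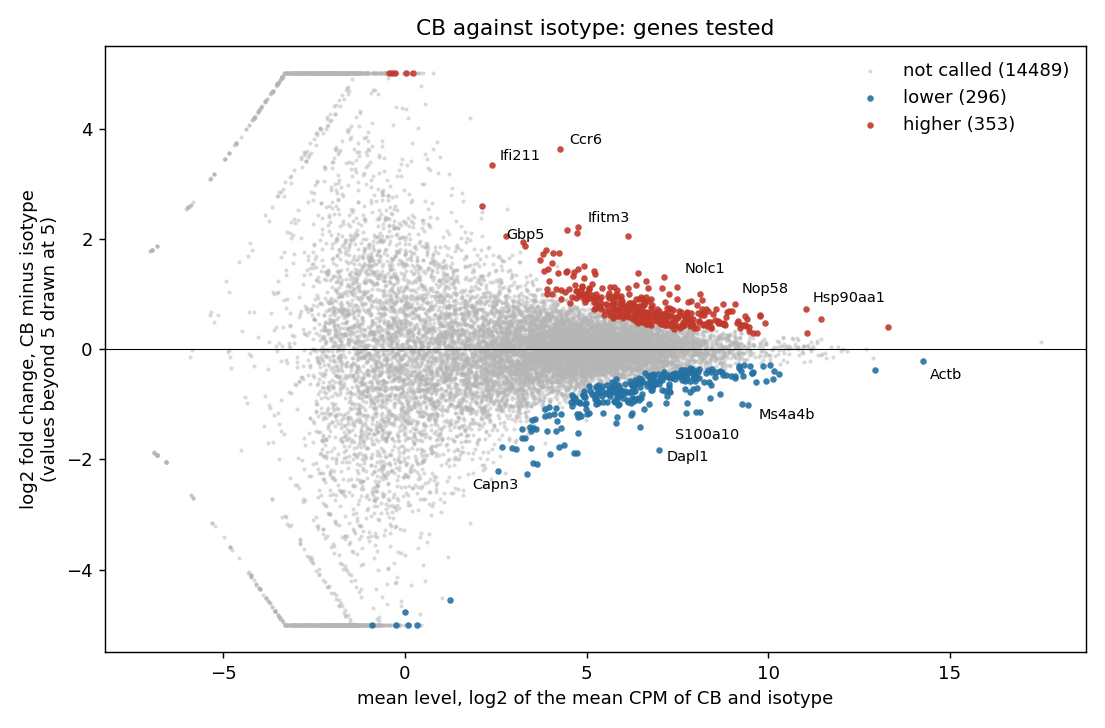
Log2 fold change of CB over isotype (vertical axis, clipped at ±5) against the mean level as log2 CPM (horizontal axis, with CPM as counts scaled to the TMM-adjusted library size) for the genes tested, with genes called higher, called lower and not called in separate colours. The 353 genes called higher lie above 0 and the 296 called lower lie below it. Mean counts reached 30 or more for 348 of the former and 293 of the latter, so few calls lie at the lowest levels. The 262 genes without a read in either group are not drawn.

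The promoters of a few called genes are shown here so that the short letter patterns searched in them can be read in place. Promoters came from RefSeq (GRCm38.p6) and run from 250 bases before to 50 bases after a start site. Among 9420 protein-coding genes tested that matched the table by symbol, 10.3% held CACGTG, the E box letters, against 7.24% of all 27025 promoters. It was present in 52 of the 276 matched genes called higher (18.8%) and in 19 of 74 matched ribosome assembly factors (25.7%). When the 200 bases before the start alone were searched, the letters were in 7.49% of the matched genes tested, in 30 of the 276 called higher (10.9%) and in 5 of the 74 assembly factors (6.76%). Of the 52 called genes of the lists of ribosome assembly and snoRNA-protein particles, 47 matched and 11 held the letters. The GRCm38 windows of 3 of them are Wdr43 at chr17:71615965-71616264, Nop2 at chr6:125131633-125131932 and Mybbp1a at chr11:72441077-72441376, all on the plus strand, with the E box in capitals. The palindrome starts 18 bases after the start site in Wdr43, 60 before it in Nop2 and 41 after it in Mybbp1a.
Wdr43: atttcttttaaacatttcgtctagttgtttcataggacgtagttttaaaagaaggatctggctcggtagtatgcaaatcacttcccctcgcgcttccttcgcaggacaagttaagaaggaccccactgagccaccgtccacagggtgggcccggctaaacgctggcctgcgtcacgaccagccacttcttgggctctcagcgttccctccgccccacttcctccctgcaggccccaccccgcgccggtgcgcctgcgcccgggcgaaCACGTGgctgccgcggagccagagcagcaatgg
Nop2: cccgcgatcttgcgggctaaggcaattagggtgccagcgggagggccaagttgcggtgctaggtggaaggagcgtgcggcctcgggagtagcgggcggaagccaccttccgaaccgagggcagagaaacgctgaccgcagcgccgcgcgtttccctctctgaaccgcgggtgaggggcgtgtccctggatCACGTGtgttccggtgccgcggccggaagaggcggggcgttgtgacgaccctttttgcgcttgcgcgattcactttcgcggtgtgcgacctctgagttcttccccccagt
Mybbp1a: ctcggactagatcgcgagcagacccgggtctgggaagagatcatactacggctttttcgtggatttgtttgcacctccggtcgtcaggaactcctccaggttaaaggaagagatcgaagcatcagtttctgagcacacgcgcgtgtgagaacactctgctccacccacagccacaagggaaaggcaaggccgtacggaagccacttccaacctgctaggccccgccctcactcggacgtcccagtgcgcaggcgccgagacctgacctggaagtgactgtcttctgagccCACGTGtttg

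The core letters of the interferon-stimulated response element, GAAA followed by any 2 bases and a further GAAA, were searched on both strands and occurred in 3.21% of the matched genes tested, in 17 of the 276 genes called higher (6.16%) and in 3.49% of all promoters. Of the 15 interferon-inducible GTPase genes tested, 10 had a promoter in the table, too few for a share, and 9 of these held the core. Of the 5 called GTPase genes 4 matched, and the 3 with the core are Igtp at chr11:58199306-58199605, Gbp5 at chr3:142496684-142496983 and Gbp2 at chr3:142620413-142620712, all on the plus strand, with the core in capitals. It begins 34 bases before the start site in Igtp, 165 before it in Gbp5 and 59 before it in Gbp2, and in both Gbp genes the capitals read as the reverse complement. A match is a description of the letters, not of a bound site.
Igtp: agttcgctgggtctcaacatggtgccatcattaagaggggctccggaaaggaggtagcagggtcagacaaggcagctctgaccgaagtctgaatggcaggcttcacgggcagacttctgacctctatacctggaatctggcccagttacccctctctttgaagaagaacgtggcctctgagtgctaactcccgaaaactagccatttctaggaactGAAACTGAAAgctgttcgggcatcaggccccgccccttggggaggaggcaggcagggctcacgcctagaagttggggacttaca
Gbp5: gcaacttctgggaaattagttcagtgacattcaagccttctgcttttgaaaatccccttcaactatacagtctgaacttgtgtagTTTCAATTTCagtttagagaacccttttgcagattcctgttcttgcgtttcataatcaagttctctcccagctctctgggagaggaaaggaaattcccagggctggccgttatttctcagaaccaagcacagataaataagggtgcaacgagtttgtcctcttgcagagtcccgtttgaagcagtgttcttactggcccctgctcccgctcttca
Gbp2: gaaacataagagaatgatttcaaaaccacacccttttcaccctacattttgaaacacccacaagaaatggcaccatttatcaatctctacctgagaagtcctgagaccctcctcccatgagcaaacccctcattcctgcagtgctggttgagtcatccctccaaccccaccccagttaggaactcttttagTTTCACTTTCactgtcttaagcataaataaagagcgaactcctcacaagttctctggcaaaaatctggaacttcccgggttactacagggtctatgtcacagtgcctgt

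The AP-1 letters TGANTCA were found in 4.73% of the matched genes tested and in 3.99% of those called higher. The CRE letters TGACGTCA were found in 3.39% and 1.81%. The CCAAT box letters were found in 39.6% and 38%. For the genes called lower 76% matched, too few for a share.

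CB libraries held 20190254 to 22010631 reads on genes and isotype libraries 16449370 to 18930284, without overlap (2-sided exact permutation test, p = 0.1, the smallest that 3 against 3 allow). The share of spike-in reads (p = 0.4), the share of the most abundant gene (p = 0.6), the share of mitochondrial genes (p = 0.6) and the number of genes detected (p = 0.2) were compared with the same exact permutation test. Cd4, which defines the sort, was present at 311, 318 and 277 CPM in the isotype mice and 223, 214 and 202 in the CB mice. It fell (log2 fold change -0.50 ± 0.12, adjusted p = 0.00919), although the call was lost with adjusted p = 0.0636 at most without isotype replicate 2, or CB replicate 3. The summed level of 10 CD4 T cell markers was 4693 to 4930 CPM in isotype and 4051 to 4215 CPM in CB libraries, and 3 of the 10 were called lower. The number called was 1 without isotype replicate 2 or CB replicate 3. In bulk samples, fewer cells of a type and less RNA per cell cannot be told apart. The genes of the antibodies' targets and Nr4a3, whose transcription the Timer reports, were not called: Cd274, which encodes PD-L1, had a log2 fold change of -0.60 (adjusted p = 0.626), Pdcd1 of 0.33 (adjusted p = 0.604), Lag3 of 0.60 (adjusted p = 0.689) and Nr4a3 of -0.62 (adjusted p = 0.378). Antibodies act on the protein, so these transcripts do not check the blockade.

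Markers of other cells were summed over each list. The 5 CD8 T cell markers summed to 43.0 to 46.3 CPM in isotype and 32.8 to 36.2 CPM in CB libraries. The 8 NK cell markers summed to 23.6 to 38.7 and 13.3 to 19.3 CPM. Both sums were without overlap, but the members did not share a direction. Of the CD8 markers, 3 had fold changes above 0 and 2 below, and none was called. Of the NK markers, 3 were above 0 and 5 below, and 1, Gzma, was called lower. Gzma made up most of the NK sum in isotype libraries and a large part of it in CB libraries. The fall of that sum and the fall of Gzma given below are therefore not separate results. The 7 erythroid markers lay at 245 to 452 CPM in isotype and 152 to 200 CPM in CB, again without overlap, and 2 of the 7 were called lower. The number was 1 without isotype replicate 1. Gzma, a granule protease of cytotoxic cells, fell from 28.3, 17.9 and 32.8 CPM to 11.3, 6.54 and 10.2 CPM (log2 fold change -1.49 ± 0.32, adjusted p = 0.00569), and the globin gene Hbb-bt from 99.7, 72.8 and 63.1 CPM to 51.1, 30.3 and 37.1 CPM (log2 fold change -0.99 ± 0.20, adjusted p = 0.00363). The 13 B cell markers overlapped between the groups, at 377 to 464 and 336 to 430 CPM, and so did the 15 myeloid and dendritic markers, at 64.3 to 77.9 and 59.5 to 70.9 CPM, and none of either list was called. The mean level of Cd8a was 0.77 CPM in isotype and 0.40 CPM in CB, and Pf4, a platelet gene, and Zbtb46, a dendritic cell factor, had no read in the 6 libraries. Plasma cell markers were at or under 5.82 CPM and platelet markers at or under 1.83 CPM in every library. The 7 regulatory T cell markers overlapped too, at 369 to 520 CPM in isotype and 474 to 643 CPM in CB, with Il2ra as the sole member called. That call was lost without isotype replicate 1, CB replicate 2 or CB replicate 3. Foxp3, the defining factor of regulatory T cells, was at a mean of 4.28 CPM in isotype and 1.62 CPM in CB and was not called. Their part in the differences below was not tested.

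Particles of snoRNAs with protein modify ribosomal RNA. Of their 13 core and assembly genes tested, 7 were called higher (53.8%), none was called lower, and all 13 had fold changes above 0 with a median of 0.62. Nolc1 (chromosome 19, 46075863 to 46085530), a nucleolar chaperone of these particles, lay at 93.3, 131 and 117 CPM in isotype replicates 1 to 3 and at 264, 237 and 244 CPM in CB replicates 1 to 3 (log2 fold change 1.13 ± 0.12, adjusted p = 1.95e-06). The lowest CB mouse stood well above the highest isotype mouse. Nop58 (chromosome 1, 59684971 to 59719044), a core protein of the box C/D particle that guides methylation, lay at 381, 406 and 388 CPM and 650.5, 706 and 705 CPM (log2 fold change 0.81 ± 0.09, adjusted p = 1.95e-06). Dkc1 (chromosome X, 75095854 to 75109777), the pseudouridine synthase of the box H/ACA particle, lay at 325, 314 and 297 CPM and 577, 528 and 544 CPM (log2 fold change 0.82 ± 0.09, adjusted p = 4.15e-06). In both genes the groups did not overlap. Nop56, the partner of Nop58, rose by 0.50 (adjusted p = 0.0103), with adjusted p = 0.0736 without isotype replicate 1, and without that library 4 of the 13 genes were called. Naf1, an assembly factor of the H/ACA particle, rose by 1.14 (adjusted p = 0.00965), with adjusted p = 0.152 at most without isotype replicate 3, or CB replicate 3. Dkc1 overlaps Mpp1 on the opposite strand, a gene that was called lower, and a strand setting is not given in the sources used here, so reads of the overlap cannot be assigned to either. The same holds for exons of Nop56 (29778 reads), which overlap those of Idh3b (26479 reads) on the opposite strand.

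Ribosome assembly factors made up the largest block of called genes among the lists. Of 87 tested, 45 were called higher (51.7%) and none lower, 85 had fold changes above 0, the median was 0.63, and in 67 every CB library was above every isotype library. Wdr43 (chromosome 17, 71615895 to 71659031), a subunit of the small-subunit processome, lay at 170.5, 177 and 210.2 CPM in the isotype mice and 386, 327 and 408 CPM in the CB mice (log2 fold change 1.01 ± 0.11, adjusted p = 3.73e-06). Nop2 (chromosome 6, 125131909 to 125144753), a methyltransferase of the 28S ribosomal RNA, lay at 41.9, 46.1 and 46.2 CPM and 99.5, 99.6 and 88.6 CPM (log2 fold change 1.10 ± 0.15, adjusted p = 4.73e-05). Mybbp1a (chromosome 11, 72441355 to 72451768), a nucleolar protein that binds RNA polymerase I, lay at 174, 134 and 163 CPM and 304, 245 and 307 CPM (log2 fold change 0.86 ± 0.12, adjusted p = 9.52e-05). The groups were apart in all 3 of these genes, whose promoters are printed above. Gnl3, the nucleolar GTPase nucleostemin, lay at 49.8, 37.1 and 54.6 CPM and 126, 109 and 135 CPM (log2 fold change 1.38 ± 0.17, adjusted p = 1.67e-05). Ncl, the abundant nucleolar protein nucleolin, changed less, from 2210, 2308 and 2286 CPM to 3665, 2781 and 3454 CPM (log2 fold change 0.54 ± 0.08, adjusted p = 0.000145), and CB replicate 2 was the lowest of its group. Ppan, a factor of the large subunit, had 13.2, 19.8 and 19.6 CPM and 50.9, 31.98 and 46.3 CPM (log2 fold change 1.29 ± 0.25, adjusted p = 0.00228), and Bysl, which acts late on the small subunit, 24, 22.04 and 35.7 CPM and 49.04, 57.1 and 70.9 CPM (log2 fold change 1.11 ± 0.20, adjusted p = 0.00102). On the opposite strand, exons of Gnl3 (17296 reads) overlap those of Pbrm1 (64897 reads). Exons of Bysl (10880 reads) likewise overlap those of Ccnd3 (112767 reads), so reads of both overlaps may belong to either gene.

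The GTPase Gnl2 (log2 fold change 0.86 ± 0.14, adjusted p = 0.000329), the RNA helicase Ddx21 (log2 fold change 0.69 ± 0.12, adjusted p = 0.00107), Rrp1b (log2 fold change 0.91 ± 0.15, adjusted p = 0.000359) and Nol8 (log2 fold change 1.01 ± 0.19, adjusted p = 0.00153) were other assembly factors that rose and kept their call in every alternative fit. Of these, Ppan, Bysl, Ddx21, Rrp1b and Nol8 were chosen for naming after their values were seen. Gpatch4, a nucleolar protein outside this list, rose from 74.8, 98.6 and 83.1 CPM to 178, 176 and 196 CPM (log2 fold change 1.10 ± 0.14, adjusted p = 1.66e-05). The number of assembly factors called was 29 without isotype replicate 1 and 26 without CB replicate 1. Of 82 genes of cytosolic ribosomal proteins none was called, and their median log2 fold change was 0.04, with 0.02 without CB replicate 2. Of 76 genes of mitochondrial ribosomal proteins 6 were called higher (7.9%), with a median of 0.22. Mrpl12 rose from 128, 175 and 147 CPM to 239, 220.4 and 232 CPM (log2 fold change 0.62 ± 0.12, adjusted p = 0.00205), and the number called was 1 without isotype replicate 1 or CB replicate 3 and 2 without isotype replicate 2 or CB replicate 1. RNA polymerase I, which transcribes the ribosomal RNA genes, had 2 of 14 genes called higher (14.3%) with a median of 0.35. They were the initiation factor Rrn3 (log2 fold change 0.84 ± 0.18, adjusted p = 0.005, with adjusted p = 0.0577 without CB replicate 3) and the subunit gene Cd3eap (log2 fold change 0.82 ± 0.18, adjusted p = 0.00569, with adjusted p = 0.0587 without CB replicate 1). Exons of Cd3eap (11563 reads) overlap those of Ercc1 (5010 reads) on the opposite strand, so reads of that overlap may belong to either gene.

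Of 15 noncoding genes tested that carry snoRNAs in their introns, 8 were called higher (53.3%) and none lower, with a median of 0.59, and 5 were called without isotype replicate 1. Snhg1 (chromosome 19, 8723475 to 8726443) lay at 197, 206 and 208 CPM in isotype and 409, 302 and 418 CPM in CB libraries (log2 fold change 0.89 ± 0.11, adjusted p = 1.66e-05). Snhg15 lay at 15.9, 21.2 and 23.1 CPM and 40.6, 39.05 and 80.8 CPM (log2 fold change 1.41 ± 0.27, adjusted p = 0.00203), with CB replicate 3 far above the other 2. Zfas1 lay at 193, 156 and 196 CPM and 285, 247 and 326 CPM (log2 fold change 0.66 ± 0.12, adjusted p = 0.00115). All 3 were without overlap. Snhg5 (log2 fold change 0.91 ± 0.16, adjusted p = 0.00115) and Snhg12 (log2 fold change 0.96 ± 0.19, adjusted p = 0.00297) also kept their call in every alternative. These are spliced transcripts with poly(A) tails, which the oligo-dT priming of the libraries captures, and not the snoRNAs themselves. By gene class, 335 of 11689 protein-coding genes were called higher and 288 lower, while no call fell among 896 processed pseudogenes. The classes were not matched for level.

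**Figure D2:**
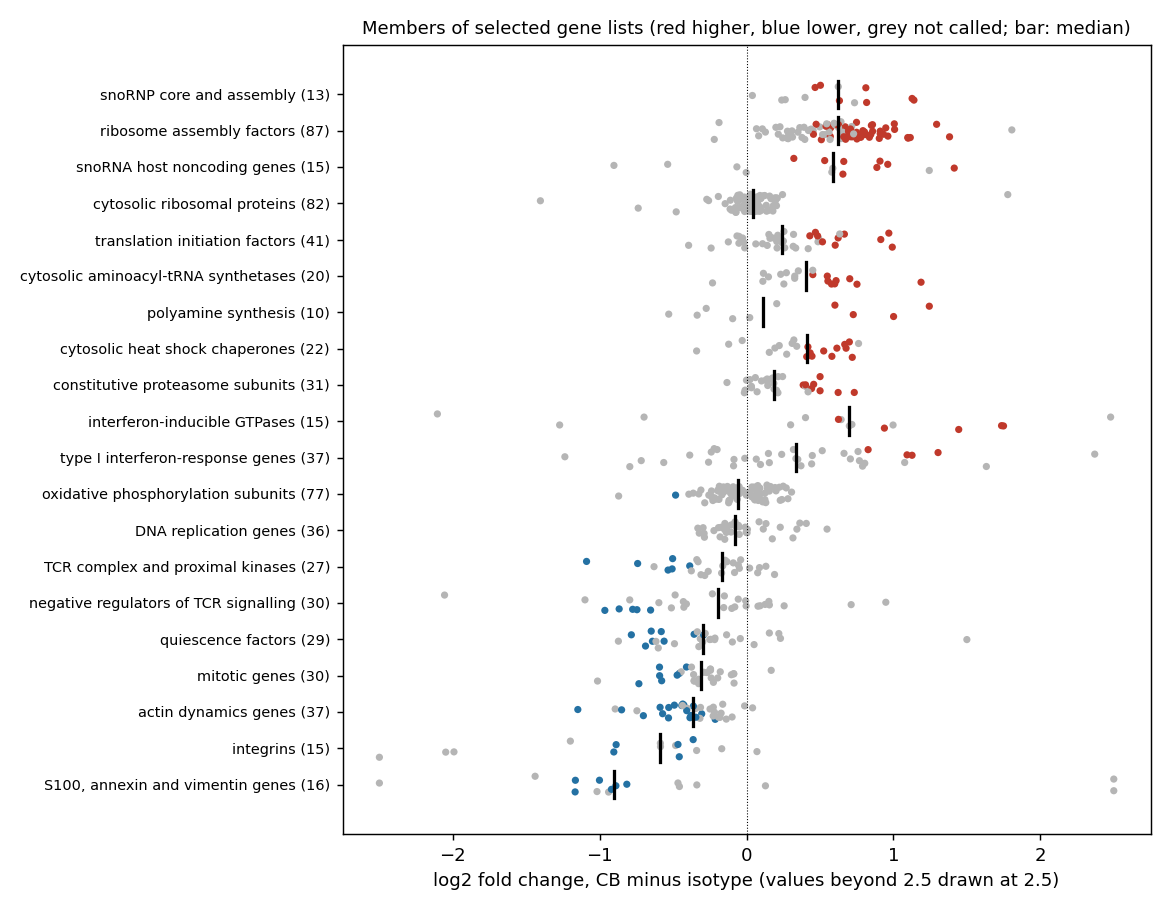
Log2 fold change of CB over isotype (horizontal axis, clipped at ±2.5) of each tested member of 20 gene lists, 1 row a list, with called members marked and a bar at the list's median. The ribosome assembly list is centred at 0.63 and cytosolic ribosomal proteins at 0.04, and the actin dynamics list is centred at -0.36 with 1 of its 37 members above 0.

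Initiation factors assemble the ribosome on a messenger RNA. Of 41 initiation factor genes, 10 were called higher (24.4%) and none lower, with a median of 0.24. Eif3j1, a loosely bound subunit of eIF3, lay at 85.9, 111 and 112 CPM in isotype and 175, 224 and 214 CPM in CB (log2 fold change 0.99 ± 0.14, adjusted p = 4.63e-05). Eif2s2, the beta subunit of eIF2 that helps to bring in the initiator tRNA, lay at 587, 754 and 719 CPM and 1105, 1005 and 1063 CPM (log2 fold change 0.62 ± 0.09, adjusted p = 9.62e-05). Eif5b, the GTPase of subunit joining, lay at 492, 562 and 524 CPM and 742, 847 and 808 CPM (log2 fold change 0.60 ± 0.09, adjusted p = 0.000139). Groups did not overlap in these 3 genes, and 9 to 11 members of the list were called when 1 library was left out. Eif2b4, a subunit of the exchange factor for eIF2 (log2 fold change 0.91 ± 0.16, adjusted p = 0.000975), was a further member that rose.

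Aminoacyl-tRNA synthetases, which charge tRNAs, had 9 of 20 cytosolic genes called higher (45.0%) and none lower, with a median of 0.40 and 6 to 9 called when 1 library was left out. Cars, the synthetase for cysteine, rose from 24.6, 18.4 and 21.5 CPM to 43.6, 37.6 and 65.8 CPM (log2 fold change 1.19 ± 0.23, adjusted p = 0.00218), and Farsa, a subunit of the enzyme for phenylalanine, by 0.70 ± 0.14 (adjusted p = 0.00256). Nsun2, a methyltransferase that modifies tRNAs, rose from 192, 199.6 and 185 CPM to 367, 309 and 331 CPM (log2 fold change 0.80 ± 0.11, adjusted p = 2.72e-05). Exons of Nsun2 and Tent4a overlap on opposite strands, so reads of the overlap may belong to either.

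Heat shock chaperones fold proteins in the cytosol. Of 22 heat shock chaperone genes, 11 were called higher (50%) and none lower, with a median of 0.41, and 7 were called without CB replicate 1. Hsp90aa1 (chromosome 12, 110690605 to 110702728), the inducible HSP90 gene, had the lowest adjusted p of the genes called higher. It lay at 1492, 1725 and 1537 CPM in isotype and at 2587, 2623 and 2619 CPM in CB libraries (log2 fold change 0.72 ± 0.07, adjusted p = 1.6e-06), and the 3 CB mice were nearly equal. Its constitutive paralog Hsp90ab1 changed by 0.41 ± 0.06 (adjusted p = 4.52e-05) from a level of 8721 ± 717 CPM (SD, n = 3). Hspe1, the mitochondrial co-chaperonin HSP10, lay at 345, 356 and 375 CPM and 581, 582 and 557 CPM (log2 fold change 0.68 ± 0.09, adjusted p = 2.3e-05), and its exons overlap those of Hspd1 on the opposite strand. Hsph1, an HSP110 exchange factor, rose by 0.70 ± 0.13 (adjusted p = 0.00115), and Dnajc2, a co-chaperone on the ribosome, by 0.61 ± 0.11 (adjusted p = 0.00102). Each of these genes was without overlap between the groups.

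Of 8 subunits of the TRiC chaperonin 2 were called higher (25.0%), with a median of 0.26 and all 8 above 0, and 1 was called in 6 of the fits that left out a library. Of 18 chaperones of the endoplasmic reticulum 2 were called higher (11.1%), with a median of 0.23, which was 0.12 without CB replicate 1. Hspa5, the chaperone BiP, rose from 655, 638 and 801 CPM to 1124, 1026 and 1022 CPM (log2 fold change 0.60 ± 0.09, adjusted p = 0.000152), and Calr, calreticulin, by 0.41 ± 0.09 (adjusted p = 0.00435). Of 31 constitutive proteasome genes 8 were called higher (25.8%), with a median of 0.19. Psmd7, a subunit of the lid, rose from 274, 314 and 262 CPM to 491, 472 and 449 CPM (log2 fold change 0.73 ± 0.09, adjusted p = 2.3e-05), and Psma4, a ring subunit, by 0.62 ± 0.12 (adjusted p = 0.00196). The number of proteasome genes called was 4 without isotype replicate 1 and 5 without isotype replicate 2 or CB replicate 3. Of the 13 genes of the immunoproteasome and of peptide loading on MHC class I, 1 was called higher and 1 lower. Both calls were lost without isotype replicate 1 or 3 or CB replicate 1 or 3, with no member called in either direction.

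Srm (chromosome 4, 148591503 to 148594993), spermidine synthase, lay at 63.5, 54.2 and 58.7 CPM in isotype and 166, 95.3 and 156 CPM in CB libraries (log2 fold change 1.24 ± 0.20, adjusted p = 0.000399), without overlap, and CB replicate 2 was nearest to the isotype mice. Polyamine synthesis had 4 of 10 genes called higher (40.0%) at a median of 0.11, which was 0.05 without isotype replicate 3, 0.03 without CB replicate 1, 0.18 without CB replicate 2 and 0.21 without isotype replicate 2. The others were Odc1, ornithine decarboxylase (log2 fold change 0.73 ± 0.19, adjusted p = 0.0265), Amd1, which makes the aminopropyl donor (log2 fold change 1.00 ± 0.24, adjusted p = 0.0122), and Dohh, the hydroxylase of hypusine (log2 fold change 0.60 ± 0.16, adjusted p = 0.0225). Odc1 had adjusted p = 0.202 at most without isotype replicate 1, 2 or 3, or CB replicate 1 or 3. Amd1 had adjusted p = 0.0911 at most without isotype replicate 1 or 3, and Dohh had adjusted p = 0.171 at most without isotype replicate 1 or 2, or CB replicate 1. The number called was 1 without isotype replicate 1 and 2 without isotype replicate 2 or 3 or CB replicate 1. Cad, the enzyme of the first steps of pyrimidine synthesis, rose from 87.8, 78.98 and 84.8 CPM to 154, 126 and 130.1 CPM (log2 fold change 0.71 ± 0.13, adjusted p = 0.00139), and it was the sole gene called higher of 18 in purine and pyrimidine synthesis (5.6%). The number called higher was 2 without anti-PD-L1 replicate 1 and 3 without CB replicate 2. Ctps2, of the same list, was called lower (log2 fold change -1.19, adjusted p = 0.00854), with adjusted p = 0.0585 at most without CB replicate 1 or 3. Ppa1, which removes the pyrophosphate that biosynthesis releases, rose from 159.9, 166 and 173 CPM to 319.6, 289.8 and 304 CPM (log2 fold change 0.87 ± 0.10, adjusted p = 7.81e-06), and Pim2, a kinase that supports survival and translation, from 49.97, 53.1 and 49.5 CPM to 124, 95.3 and 123 CPM (log2 fold change 1.16 ± 0.15, adjusted p = 2.3e-05). Both were without overlap. Ddt, a tautomerase related to the cytokine MIF, rose from 72.8, 80.3 and 76.5 CPM to 152, 134 and 144 CPM (log2 fold change 0.91 ± 0.12, adjusted p = 3.68e-05).

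Glycolysis had 4 of 20 genes called higher (20%) with a median of 0.26, and 2 were called without isotype replicate 3 or CB replicate 1. One-carbon enzymes had 3 of 11 (27.3%) with a median of 0.31, or 0.15 without CB replicate 3, among them Shmt2, the mitochondrial serine hydroxymethyltransferase (log2 fold change 0.49 ± 0.14, adjusted p = 0.0395, with adjusted p = 0.293 at most without isotype replicate 1, 2 or 3, or CB replicate 1 or 3). Between 0 and 1 of them were called without any isotype library, CB replicate 1 or CB replicate 3. Of 77 subunits of oxidative phosphorylation none was called higher and 1 was called lower, with 0 called lower without isotype replicate 2 or CB replicate 3 and 2 without CB replicate 2. Cholesterol synthesis and uptake had 1 gene called higher and 1 lower of 24, at a median of 0.22, which was 0.07 without CB replicate 3. Without isotype replicate 1 or CB replicate 3 none of these 24 was called. Without isotype replicate 2 none was called higher, without any 1 anti-PD-L1 library 2 were, and without isotype replicate 3 or CB replicate 1 none was called lower. Of 9 amino acid transporters none was called, at a median of 0.46 with 8 above 0.

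**Figure D3:**
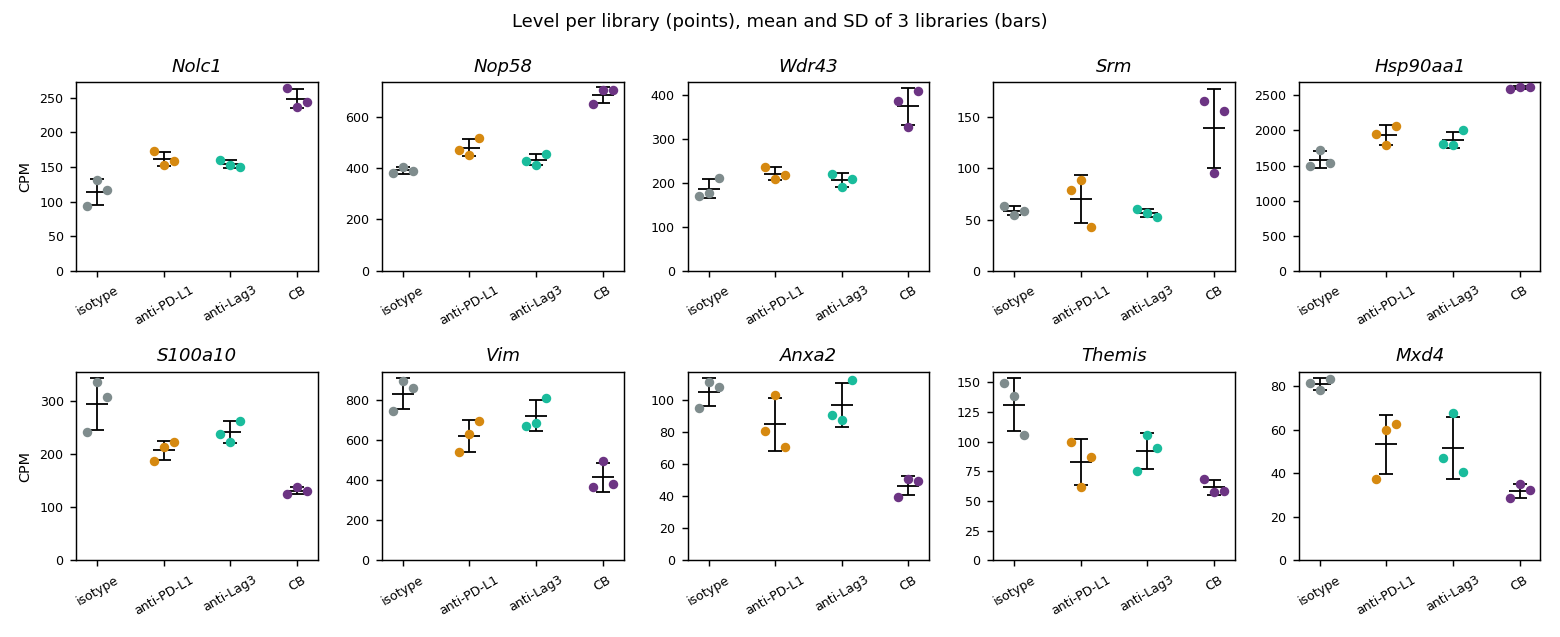
CPM in each library (points, linear axis in each panel, with bars for the mean and SD of a group) for 10 genes, with 3 mice in each of the 4 groups. For Nolc1, Nop58, Wdr43, Srm and Hsp90aa1 all CB mice lie above all isotype mice, and for S100a10, Vim, Anxa2, Themis and Mxd4 all lie below.

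Interferon-inducible GTPases, which act against intracellular pathogens, form a family of paralogs. Of 15 genes tested, 5 were called higher (33.3%) and none lower, with a median of 0.70, or 0.45 without isotype replicate 1, and 4 or 5 were called when 1 library was left out. Gbp5 (chromosome 3, 142493978 to 142522344), a guanylate-binding protein, lay at 8.45, 8.36 and 6.46 CPM in isotype and 27.7, 26.6 and 23.2 CPM in CB libraries (log2 fold change 1.74 ± 0.29, adjusted p = 0.000621). Gbp2 (chromosome 3, 142620602 to 142638008) lay at 13.9, 15.01 and 14.6 CPM and 38.1, 40.4 and 39.9 CPM (log2 fold change 1.44 ± 0.28, adjusted p = 0.00203). Groups did not overlap, and the replicates of either gene were close to each other within each group. Iigp1, an immunity-related GTPase, lay at 8.4, 5.64 and 11.8 CPM and 28.2, 22.7 and 36.2 CPM (log2 fold change 1.75 ± 0.31, adjusted p = 0.00102). Igtp (chromosome 11, 58199556 to 58207591), of the same family, lay at 63.6, 61.8 and 59.8 CPM and 124, 94.2 and 137 CPM (log2 fold change 0.94 ± 0.14, adjusted p = 0.000143), and its exons overlap those of Irgm2 on the same strand. Ifi47 rose by 0.63 (adjusted p = 0.00962), with adjusted p = 0.104 at most without isotype replicate 1, or CB replicate 3. The family has close paralogs, and reads that map to more than 1 of them were not counted. The promoters of Igtp, Gbp5 and Gbp2 are those printed above with the response element core.

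Of 37 genes of the response to type I interferon, 4 were called higher (10.8%), none was called lower, the median was 0.34 and 25 were above 0, and without CB replicate 3 the median was 0.22 and 2 were called. Isg15 (chromosome 4, 156199424 to 156200818), a ubiquitin-like protein, lay at 72.2, 78.2 and 90.97 CPM in isotype and 176, 149.8 and 269.6 CPM in CB (log2 fold change 1.30 ± 0.20, adjusted p = 0.000194), with CB replicate 3 highest. Bst2, the membrane protein tetherin, lay at 21.99, 34.8 and 37.8 CPM and 67.5, 52.8 and 86.02 CPM (log2 fold change 1.13 ± 0.21, adjusted p = 0.00163). Ifitm3, which blocks virus entry and is not in this list, lay at 3.07, 10.5 and 16.8 CPM and 28.9, 48.8 and 52.7 CPM (log2 fold change 2.10 ± 0.44, adjusted p = 0.00448). In all 3 genes the highest isotype mouse stayed below the lowest CB mouse, although isotype replicates of Ifitm3 differed widely. Ly6a, an interferon-inducible surface antigen, rose from 449.7, 488 and 487 CPM to 685, 649 and 684 CPM (log2 fold change 0.50 ± 0.09, adjusted p = 0.00105). It was the sole gene called higher of 9 Ly6 antigens, of which 2 were called lower. Ly6e was among the latter (log2 fold change -0.40, adjusted p = 0.0161), with adjusted p = 0.102 at most without isotype replicate 1 or 2, or CB replicate 2 or 3.

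The Ifi200 family of DNA sensors had 1 gene called higher and 2 lower of 11, with a median of -0.44. Each count was 0 without isotype replicate 3 or CB replicate 1. Ifi211 lay at 1.96, 0 and 0.847 CPM in isotype and 10.2, 5.87 and 12.9 CPM in CB (log2 fold change 3.34 ± 0.87, adjusted p = 0.023), with adjusted p = 0.124 at most without isotype replicate 3, or CB replicate 1 or 3. Ifi209 changed by -0.77 ± 0.19 (adjusted p = 0.0145), with adjusted p = 0.0969 at most without isotype replicate 1 or 3, or CB replicate 1 or 2, and Ifi203 by -0.44 ± 0.13 (adjusted p = 0.0403), with adjusted p = 0.203 at most without isotype replicate 2 or 3, or anti-Lag3 replicate 2, or CB replicate 1 or 2. Exons of Ifi203 overlap those of Mndal on the same strand, so reads of that overlap may belong to either. Ifi211 overlaps the body of Mndal on the same strand, without shared exons. Of 17 STAT and SOCS genes, which carry and restrain cytokine signals, none was called. Of 9 interferon regulatory factors 2 were called higher, Irf8 (log2 fold change 1.11 ± 0.16, adjusted p = 6.84e-05) and Irf4 (log2 fold change 0.78 ± 0.19, adjusted p = 0.0122), the latter with adjusted p = 0.148 at most without isotype replicate 3, or CB replicate 1.

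Among 26 cytokine receptor chains 3 were called higher and 3 lower (11.5% each), and the median was -0.23, or -0.38 without CB replicate 3. Without CB replicate 1 the number called lower was 1. Tgfbr2 (chromosome 9, 116084293 to 116175360), the ligand-binding receptor of TGF-beta, fell from 41.9, 47.95 and 49.2 CPM in isotype to 17.1, 25.97 and 19.5 CPM in CB (log2 fold change -1.15 ± 0.23, adjusted p = 0.0023) and did so without overlap. Il12rb2 and Il12rb1, the chains of the IL-12 receptor, rose by 1.42 ± 0.37 (adjusted p = 0.0208) and 1.01 ± 0.28 (adjusted p = 0.0332), and Il2ra, the high-affinity chain for IL-2, by 0.99 ± 0.27 (adjusted p = 0.0288). These 3 calls depended on single libraries. Il12rb2 had adjusted p = 0.108 at most without isotype replicate 1, 2 or 3, or CB replicate 2 or 3. Il12rb1 had adjusted p = 0.145 at most without isotype replicate 1, 2 or 3, or CB replicate 1 or 3, and Il2ra had adjusted p = 0.294 at most without isotype replicate 1, or CB replicate 2 or 3. Ifnar1, a chain of the type I interferon receptor, changed by -0.88 (adjusted p = 0.0332), with adjusted p = 0.149 at most without isotype replicate 1, 2 or 3, or CB replicate 1 or 3. Il6st, the shared signal chain gp130, changed by -0.65 (adjusted p = 0.00679), with adjusted p = 0.0523 without CB replicate 1. Il12rb2 overlaps exons of Serbp1 on the opposite strand, which was called higher and had 489495 reads beside 2684 for Il12rb2.

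**Figure D4:**
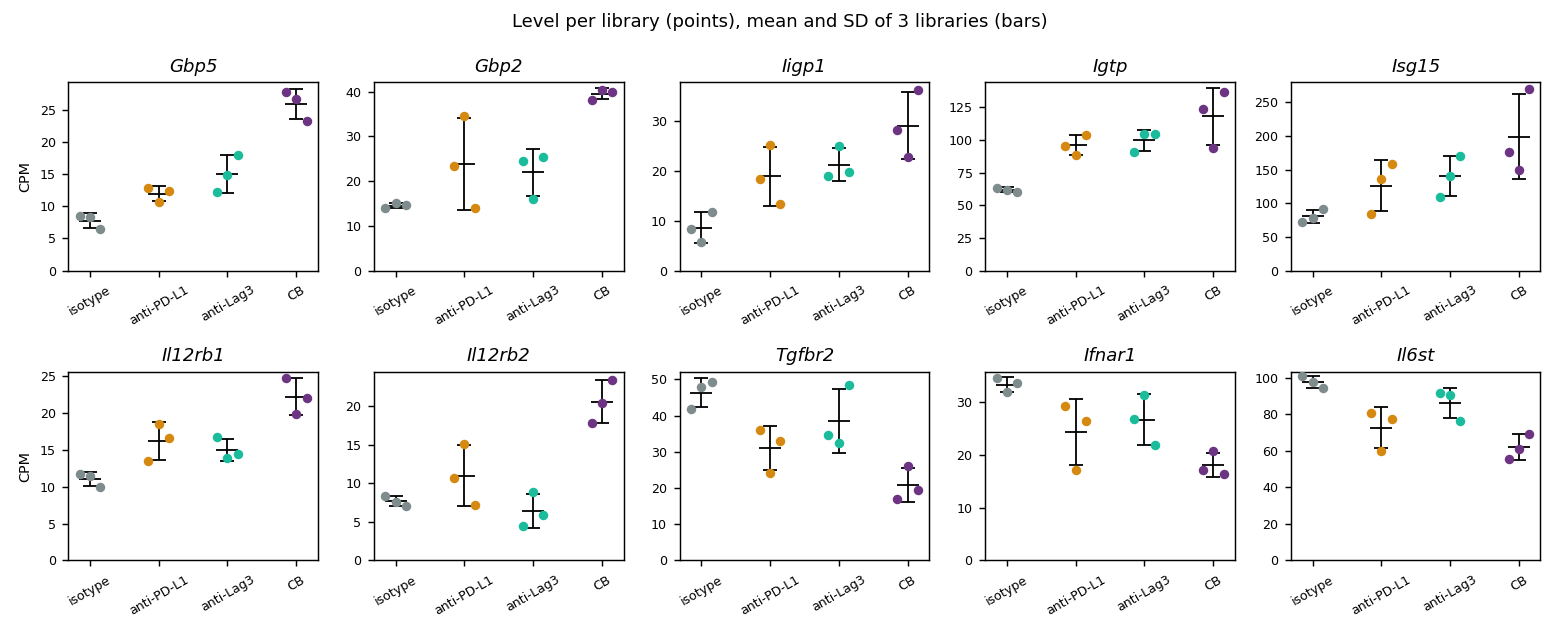
CPM in each library (points, linear axis in each panel, with bars for the mean and SD of a group) for 10 interferon and cytokine receptor genes in the 4 groups, 3 mice each. The CB mice of Gbp5 lie at 23.2 to 27.7 and its isotype mice at 6.46 to 8.45, and the CB mice of Tgfbr2 lie at 17.1 to 26.0 below isotype mice at 41.9 to 49.3.

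Of 37 actin dynamics genes, 18 were called lower (48.6%) and none higher, 36 had fold changes below 0, the median was -0.36, and in 28 every CB library was below every isotype library. Pfn1 (chromosome 11, 70651850 to 70654644), profilin, which loads actin monomers, lay at 348, 347 and 366 CPM in isotype and 172, 211 and 94.9 CPM in CB (log2 fold change -1.15 ± 0.17, adjusted p = 0.000116), and the CB mice spread widely. Cotl1, a coactosin-like actin binder, lay at 1186, 1193 and 1141 CPM and 863, 766 and 739 CPM (log2 fold change -0.57 ± 0.08, adjusted p = 6.06e-05). Arhgdib, an inhibitor of small GTPases, lay at 737, 789 and 719 CPM and 522, 539 and 535 CPM (log2 fold change -0.49 ± 0.08, adjusted p = 0.000287). These 3 genes were without overlap between the groups. Flna, the crosslinker filamin A, changed by -0.59 (adjusted p = 0.00088), Rac2, a small GTPase of blood cells, by -0.44 (adjusted p = 0.0019), and Myh9, the heavy chain of non-muscle myosin II, by -0.41 (adjusted p = 0.00178). Actb, beta-actin, changed by -0.21 ± 0.05 (adjusted p = 0.00965), with adjusted p = 0.0885 at most without isotype replicate 2, or CB replicate 2 or 3, and without CB replicate 3 the list had 9 called members. Pfn1 has processed pseudogenes nearly identical to it, so its unique reads are an uncertain measure.

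Rcsd1, which binds the actin-capping protein, fell from 212, 187 and 179.5 CPM to 98.2, 106 and 89.99 CPM (log2 fold change -0.98 ± 0.12, adjusted p = 1.66e-05), and Add3, an adducin of the membrane skeleton, from 177, 213 and 186 CPM to 107, 96.8 and 115 CPM (log2 fold change -0.85 ± 0.12, adjusted p = 4.69e-05). Both lie outside the actin list. Of 16 genes of S100 proteins, annexins and vimentin, 6 were called lower (37.5%) and none higher, with a median of -0.90, and 5 or 6 were called when 1 library was left out. S100a10 (chromosome 3, 93555080 to 93564643), the partner of annexin A2 at the membrane, lay at 241, 335 and 307 CPM in isotype and 125, 138 and 129.9 CPM in CB (log2 fold change -1.17 ± 0.12, adjusted p = 1.83e-06). Its partner gene Anxa2 (chromosome 9, 69453620 to 69491795) lay at 95.1, 112 and 108 CPM and 39.8, 51.2 and 49.6 CPM (log2 fold change -1.17 ± 0.16, adjusted p = 3.68e-05). Vim (chromosome 2, 13573927 to 13582826), the intermediate filament protein vimentin, lay at 742, 892 and 856 CPM and 368, 497 and 378 CPM (log2 fold change -1.002 ± 0.11, adjusted p = 4.05e-06). All CB mice were below all isotype mice in these genes. Anxa6, another calcium-dependent membrane binder, changed by -0.82 (adjusted p = 4.69e-05), and S100a6 by -0.92 (adjusted p = 0.00473).

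Of 15 integrin genes and integrin adaptors 5 were called lower (33.3%) and none higher, with a median of -0.59, and 3 were called without isotype replicate 1 or CB replicate 1. Itga6, the laminin receptor chain, lay at 82.5, 114 and 114 CPM in isotype and 54.2, 57.5 and 54.3 CPM in CB (log2 fold change -0.90 ± 0.15, adjusted p = 0.000376), and Itga4, which pairs with beta 1 or beta 7, at 97.1, 128 and 127 CPM and 58.7, 63.96 and 67.1 CPM (log2 fold change -0.89 ± 0.16, adjusted p = 0.00115). Of 13 genes of egress and homing 4 were called lower (30.8%), with a median of -0.29, or -0.47 without CB replicate 2, and 2 were called without isotype replicate 1 or 2. S1pr1 (chromosome 3, 115710433 to 115715072), the receptor that leads T cells out of lymphoid organs, lay at 133, 137 and 116 CPM and 55.9, 57.6 and 31.3 CPM (log2 fold change -1.41 ± 0.17, adjusted p = 1.03e-05). In each of these 3 genes the CB libraries lay below the isotype libraries without overlap. Selplg, a ligand of selectins, changed by -0.45 ± 0.12 (adjusted p = 0.0342), with adjusted p = 0.174 at most without isotype replicate 1 or 2, or CB replicate 1 or 3.

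Quiescence factors had 8 of 29 genes called lower (27.6%) and none higher, with a median of -0.30. Foxo1, the forkhead factor of resting T cells, lay at 256, 227 and 224 CPM in isotype and 149.7, 166 and 163 CPM in CB (log2 fold change -0.56 ± 0.11, adjusted p = 0.00203), and Ets1, a transcription factor of lymphocytes, at 278, 245 and 306 CPM and 191, 201 and 162 CPM (log2 fold change -0.58 ± 0.11, adjusted p = 0.00203). Both were without overlap. Lef1 changed by -0.64 (adjusted p = 0.00502), with adjusted p = 0.0568 without CB replicate 3, and the cell cycle inhibitor Cdkn1b by -0.65 (adjusted p = 0.00969), with adjusted p = 0.107 at most without isotype replicate 1, or CB replicate 3. The number called was 4 without isotype replicate 1, 5 without isotype replicate 2 or CB replicate 1, and 3 without CB replicate 3. Dapl1 (chromosome 2, 59484653 to 59505020), a small protein known from resting T cells and outside this list, fell from 235, 225 and 136 CPM to 58.8, 60.5 and 48.1 CPM (log2 fold change -1.83 ± 0.19, adjusted p = 1.85e-06). Mxd4 and Mxd3, which pair with MAX and compete with MYC for E boxes, were the 2 genes called of 12 in the MYC network. Mxd4 lay at 81.5, 78.1 and 83.2 CPM and 28.6, 35.1 and 32.1 CPM (log2 fold change -1.34 ± 0.20, adjusted p = 0.000124), and Mxd3 at 44.9, 54.03 and 55.4 CPM and 22.7, 27.8 and 26.8 CPM (log2 fold change -0.998 ± 0.20, adjusted p = 0.00275), each without overlap between the groups. Exons of Mxd3 (9389 reads) overlap those of Prelid1 (42347 reads) on the opposite strand, so reads of that overlap may belong to either gene.

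Of 27 genes of the receptor complex and its kinases 6 were called lower (22.2%) and none higher, with a median of -0.17, or -0.27 without CB replicate 2, and 1 was called without CB replicate 3. Themis (chromosome 10, 28668360 to 28883818), a signalling adaptor of T cells, lay at 149, 138 and 106 CPM in isotype and 68.8, 57.5 and 58.3 CPM in CB (log2 fold change -1.09 ± 0.17, adjusted p = 0.000205) without overlap. Txk, a Tec family kinase, changed by -0.74 (adjusted p = 0.0099), with adjusted p = 0.0985 without CB replicate 3, and the adaptor Skap1 by -0.51 (adjusted p = 0.0083), with adjusted p = 0.0619 at most without CB replicate 1 or 3. Of 30 negative regulators of these signals 5 were called lower (16.7%), with a median of -0.19. Dgka, the kinase that removes diacylglycerol, fell from 410.3, 440.0 and 409.9 CPM to 222, 327 and 251 CPM (log2 fold change -0.65 ± 0.11, adjusted p = 0.000621). The adaptors Sit1 (log2 fold change -0.96 ± 0.24, adjusted p = 0.0164) and Pag1 (log2 fold change -0.87 ± 0.23, adjusted p = 0.022) were others of them, Sit1 with adjusted p = 0.131 at most without isotype replicate 1 or 2, or CB replicate 1 or 3, and Pag1 with adjusted p = 0.135 at most without isotype replicate 1 or 2, or CB replicate 1 or 2. The number of negative regulators called was 2 without isotype replicate 1 and 3 without isotype replicate 2 or any CB replicate.

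Of 24 genes of RasGRP and ERK feedback 3 were called lower (12.5%), and Rasgrp2, an exchange factor for Rap1, fell from 368, 405 and 373 CPM to 139, 189.6 and 193 CPM (log2 fold change -1.14 ± 0.12, adjusted p = 1.85e-06). The number called in this list was 1 without isotype replicate 1, CB replicate 1 or CB replicate 2. Of 21 genes of calcineurin, NFAT and calcium entry none was called, at a median of -0.23, or -0.12 without CB replicate 1. Of 22 NR4A, EGR and AP-1 factors 2 were called higher, and 1 without isotype replicate 1 or CB replicate 3. Of 20 NF-kB subunits and inhibitors 2 were called higher and 3 lower. The number called higher was 0 without isotype replicate 1 and 1 without CB replicate 1. Nfkb1, the precursor of p50, fell from 90.4, 97.4 and 107 CPM to 47.99, 60.3 and 51.1 CPM (log2 fold change -0.89 ± 0.17, adjusted p = 0.00203), and Traf3ip3, an adaptor that binds TRAF3, from 105, 121 and 117 CPM to 78.8, 76.2 and 70.5 CPM (log2 fold change -0.60 ± 0.12, adjusted p = 0.00345). Traf2, an adaptor of TNF receptors, rose by 1.07 (adjusted p = 0.0116), with adjusted p = 0.0646 at most without isotype replicate 1, or CB replicate 1. Checkpoint and CD28-family receptors had 1 gene called higher and 1 lower of 20, the latter not called without isotype replicate 1 or 2, anti-Lag3 replicate 2 or any CB replicate. TNF superfamily genes had 2 called higher of 21. Of 16 BCL2 family genes none was called.

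Mitotic genes and DNA replication genes differed in their counts. Of 30 mitotic genes 7 were called lower (23.3%) and none higher, 29 had fold changes below 0, the median was -0.31, and 17 were without overlap, while of 36 DNA replication genes none was called. The median of the replication genes was -0.08, or -0.05 without CB replicate 2. Whether the lists differ from each other was not tested. Nusap1, which binds spindle microtubules, lay at 258, 281 and 247 CPM in isotype and 148, 145 and 180.2 CPM in CB (log2 fold change -0.73 ± 0.12, adjusted p = 0.000648). Mki67, the Ki-67 antigen on mitotic chromosomes, lay at 443, 404 and 354 CPM and 288, 276 and 233 CPM (log2 fold change -0.59 ± 0.11, adjusted p = 0.0014). Kif11, the kinesin that separates spindle poles, lay at 136, 140.2 and 162 CPM and 95.7, 102 and 92.3 CPM (log2 fold change -0.59 ± 0.12, adjusted p = 0.00349). No CB library reached the lowest isotype library in these 3 genes. Top2a, topoisomerase II, changed by -0.46 (adjusted p = 0.00223), and the list had 4 called members without CB replicate 3. Cdc25b, the phosphatase that activates CDK1, fell from 201, 205 and 191 CPM to 103, 115 and 129.9 CPM (log2 fold change -0.78 ± 0.12, adjusted p = 0.000249), and it was 1 of 3 genes called lower of 22 G1 cyclins, kinases and inhibitors, of which 1 was called without isotype replicate 1.

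**Figure D5:**
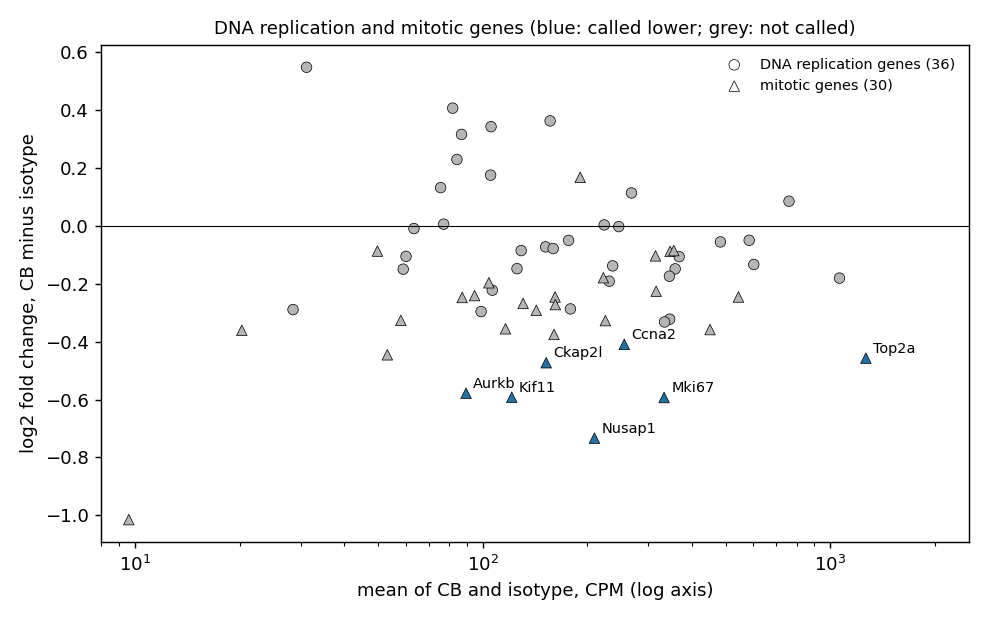
Log2 fold change of CB over isotype (vertical axis) against the mean CPM (horizontal log axis) for 36 DNA replication genes and 30 mitotic genes, with circles for replication, triangles for mitotic genes and blue for called lower. None of the replication genes is called, and 7 mitotic genes are called lower, among them Mki67 at -0.59 and Nusap1 at -0.73.

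Surface antigens without a common pathway also changed. Of 13 MS4A, Cd52 and galectin genes 5 were called lower (38.5%) and 1 higher, with a median of -0.54. Ms4a6b, a protein that spans the membrane several times, fell from 643, 672 and 607 CPM to 464, 452 and 414 CPM (log2 fold change -0.53 ± 0.09, adjusted p = 0.00049), and Cd52, a short glycoprotein of lymphocytes, from 1294, 1353 and 1362 CPM to 908, 958 and 888 CPM (log2 fold change -0.54 ± 0.07, adjusted p = 2.72e-05). Ms4a4b, of the same family as Ms4a6b, had the lowest adjusted p of all genes tested (log2 fold change -1.01 ± 0.09, adjusted p = 7.74e-08). All 3 were without overlap, and the MS4A genes have close paralogs whose shared reads were not counted. Of 9 Ly6 antigens 1 was called higher and 2 lower. The number called lower was 1 without isotype replicate 1 or 2 or CB replicate 2 or 3. Of 14 metallothioneins and genes of zinc handling 2 were called higher, Mt2 (log2 fold change 0.99 ± 0.23, adjusted p = 0.00975, with adjusted p = 0.0748 at most without isotype replicate 1 or 2, or CB replicate 3) and the importer Slc39a10 (log2 fold change 1.39 ± 0.34, adjusted p = 0.0132, with adjusted p = 0.136 at most without isotype replicate 1 or 2, or CB replicate 3). St6gal1, which caps glycans with sialic acid, fell from 85.7, 82.7 and 71.9 CPM to 38.6, 31.5 and 31.8 CPM (log2 fold change -1.24 ± 0.17, adjusted p = 6.13e-05), and Emp3, a small membrane protein, from 108, 116 and 89.3 CPM to 37.1, 42.3 and 57.6 CPM (log2 fold change -1.19 ± 0.17, adjusted p = 9.62e-05). Of 24 helper lineage transcription factors 3 were called each way, with a median of 0.21, and the number called lower was 1 without CB replicate 3. Of 13 T helper cytokines and 12 chemokine receptors 1 each was called, Il21 (log2 fold change 2.16 ± 0.42, adjusted p = 0.00203) and Ccr6 (log2 fold change 3.62 ± 0.45, adjusted p = 1.66e-05).

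Large changes were found for genes of low level. Capn3, a calpain best known from muscle, lay at 16.1, 23.6 and 11.3 CPM in isotype and 2.04, 3.27 and 5.21 CPM in CB (log2 fold change -2.27 ± 0.43, adjusted p = 0.00203), and it overlaps Ganc on the same strand. Nod1, a sensor of bacterial peptidoglycan, lay at 16.1, 27.4 and 17 CPM and 1.73, 5.1 and 7.33 CPM (log2 fold change -2.09 ± 0.42, adjusted p = 0.00294), and Pglyrp2, an amidase that cleaves peptidoglycan, at 16.2, 19.8 and 20.2 CPM and 4.56, 3.56 and 5.21 CPM (log2 fold change -2.07 ± 0.45, adjusted p = 0.00526). Scml4, related to the Polycomb group, lay at 27.3, 27.6 and 20.1 CPM and 8.91, 6.78 and 4.38 CPM (log2 fold change -1.90 ± 0.32, adjusted p = 0.000621). None of these 4 genes overlapped between the groups. Gm14085, a gene model, fell from 39.4, 40.6 and 39.7 CPM to 7.18, 11.97 and 13.1 CPM (log2 fold change -1.89 ± 0.29, adjusted p = 0.000187). ENSMUSG00000120356, a gene without a symbol or coordinates in the annotation, rose from 17.5, 33.6 and 31.1 CPM to 69.2, 152 and 120.0 CPM (log2 fold change 2.05 ± 0.34, adjusted p = 0.00042). Nfil3, a basic leucine zipper repressor, rose by 1.94 ± 0.46 (adjusted p = 0.0104), with adjusted p = 0.0672 at most without isotype replicate 2, or CB replicate 1 or 3, and Mars2, the mitochondrial synthetase for methionine, by 1.87 ± 0.45 (adjusted p = 0.0131), with adjusted p = 0.0954 at most without isotype replicate 1 or 2, or CB replicate 1. Tlcd1, Art4, Arhgap33, Btf3, Gm13840, Gm48585 and ENSMUSG00000120362 also met the rule for the largest changes, but each lost its call in 4 to 12 of the 12 fits that left out 1 library. Tg, thyroglobulin, was counted at 10.8, 3.99 and 14.03 CPM in isotype and 40.9, 42.4 and 50.8 CPM in CB (log2 fold change 2.21 ± 0.32, adjusted p = 9.62e-05), but Sla lies within it on the opposite strand, had 69447 reads beside 5356, and changed by 0.13. Entpd1, the ectonucleotidase CD39, had 136 reads in the isotype libraries and none in CB, which is at least 51.2-fold lower against a limit of 3 reads over the group, with adjusted p = 0.125 at most without isotype replicate 1, 2 or 3, or anti-Lag3 replicate 2, or CB replicate 1, 2 or 3.

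The single antibodies give values beside those of CB, without a test, since the genes were chosen on CB and isotype and all comparisons share the isotype mice. Of the 353 genes called higher, the mean of the anti-PD-L1 group lay between those of isotype and CB for 343 and the mean of the anti-Lag3 group for 335. Of the 296 called lower these numbers were 283 and 280. Nolc1 lay at 174, 154 and 158 CPM with anti-PD-L1 alone and at 160.2, 153 and 149.6 CPM with anti-Lag3 alone, all between its isotype and CB mice. S100a10 lay at 186, 213 and 222 CPM and 237, 222 and 263 CPM, and Gbp5 at 12.9, 10.6 and 12.3 CPM and 12.2, 14.8 and 17.96 CPM. For Gbp5 every mouse given a single antibody lay between the isotype and CB mice, and for S100a10 all were above the CB mice and 1 was within the isotype range. Dapl1 lay at 135, 72.7 and 114 CPM with anti-PD-L1 and 145, 113 and 131 CPM with anti-Lag3, all above its CB mice.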

How the data were processed

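CD4+ T cells positive for both Timer forms were sorted from the spleens of 12 mice, with 3 mice in each group (isotype, either antibody alone, or CB). Mice were sorted 4 at a time under a CD4 label for each treatment, and the labels do not give the sort of a library. Polyadenylated RNA was sequenced from its 3′ end without molecular identifiers. Per the paper's methods and the submitters' processing notes, the authors trimmed reads with cutadapt 1.18, mapped them with STAR 2.6.1a to GRCm38 and counted uniquely mapped reads per gene with featureCounts 1.6.4, and they used DESeq2 in R 4.0. The deposited counts are raw, whole-number read counts without normalization. The deposited rlog table, on a log2 scale, was not used. The annotation release and strand setting are not given in the sources used here. Overlaps with genes on the opposite strand are not given above for every named gene.

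Genes with at least 30 reads over the 12 libraries were tested, with 114 spike-in rows left out. edgeR 4.0.16 (limma 3.58.1, R 4.3.3) was run with TMM scaling, 1 fit of 4 group means without covariates, quasi-likelihood F tests and p-values adjusted by Benjamini-Hochberg across the genes that passed the filter, called under 0.05. Fold changes use edgeR's prior count of 0.125, ± is the SE for a log2 fold change and the SD over 3 mice for a level, and CPM are computed from the deposited counts. Symbols and coordinates are from GENCODE M21 (GRCm38), which held 52073 of the 56691 genes. Promoters are from RefSeq (1 window a gene). The fit was tested on simulated data, in which 10 of 100 genes changed by 0.5 on the log2 scale were called in the right direction. Of 100 genes changed by 1, 45 were, and 7 unchanged genes were called. A gene that was not called may therefore still differ. Fewer genes were changed in the simulation than were called in the data, so the shares found need not hold for the data. Each replicate is a separate mouse. A count of 0 allows up to 3 reads, and such limits cover counting error only, since copies made by PCR were not removed.

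The members and 59 gene lists were chosen with earlier results of these data known, so lists are described by counts and medians, without a test. Named genes are the 15 called each way with the smallest adjusted p, the 10 called each way with the largest change at a mean count of at least 30, up to 6 called members of each list in each direction, the antibodies' targets and the gate. Some of these genes are not reported here. Alternatives were glmTreat in edgeR with a minimum log2 change of 0.2, DESeq2 1.42.0 (against 0, and against 0.2 with s values of ashr 2.2.63 under 0.005), library scaling by DESeq2, the most abundant gene left out of library sizes, no filter, filterByExpr, the replicate number as a block, a fit of 6 libraries, and each library left out in turn.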

Additional observations from a re-analysis of the deposited data

How the results depend on the processing

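Of 353 genes called higher and 296 called lower, glmTreat in edgeR, with a minimum log2 change of 0.2, called 213 and 151, and DESeq2's test against 0.2 with the s value called 103 and 95. DESeq2 against 0 called 443 and 428, and 647 of the 649 calls remained. With 1 library left out, between 214 and 385 genes were called higher and between 170 and 328 lower. The lowest counts came without isotype replicate 1 (214 higher) and without CB replicate 3 (170 lower). Scaling, filter and the fit of 6 libraries kept both counts within 1.5 times, with 343 and 316 for DESeq2's size factors and 438 and 380 without a filter. No call of these 649 changed sign in any alternative. The cells were sorted in batches that held mice of every treatment, which libraries shared a batch is not given in the labels, and the main fit has no batch term. In its principal component analysis of these libraries, the paper attributes PC2 largely to effects of the sort batches. Deviations of same-numbered CB and isotype libraries correlated at 0.071, -0.051 and 0.05 over 10448 genes, and not every library correlated best with its own number, so the numbers were not treated as pairs. The fit with the replicate number as a block called 450 and 393, and 643 of the calls remained.

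Of 212 called genes that were followed by name, 103 kept their call in all alternatives, 90 lost it without at least 1 library, 64 with glmTreat, 108 with the s value and 1 with the replicate block, and 0 changed sign. Of 1239 list medians recomputed, 84 moved by more than 1 SD of the library medians, and 14 medians of size 0.2 or more changed sign (T helper cytokines, Ly6 antigens, NK cell and platelet markers). With 3 mice a group and 16449370 to 22010631 reads on genes a library, genes under about 30 reads in all were not tested.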
